A study of Arabidopsis thaliana with 4 samples.

Results

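The 10 genes described here encode chromatin regulators of the shoot apex and were chosen by identifier from the 27322 genes with usable values. They are the SWI/SNF remodelling ATPases SYD (AT2G28290) and BRM (AT2G46020), the Polycomb repressive complex 2 (PRC2) genes CLF (AT2G23380), SWN (AT4G02020), EMF2 (AT5G51230), FIE (AT3G20740) and MSI1 (AT5G58230), the Polycomb reader LHP1 (AT5G17690, listed as TFL2 in RefSeq), the Polycomb antagonist ULT1 (AT4G28190) and the corepressor TPL (AT1G15750). All 10 genes were found in the table and all had at least 2280 reads in each genotype. Their transcripts were measured by RNA-seq of poly(A) RNA from inflorescence apices of Arabidopsis thaliana, sampled at 6 weeks from a greenhouse kept at 22 °C under days of 16 h and nights of 8 h, with older flowers removed. The 2 groups were clv3 plants and mp clv3 plants, so both are labelled as lacking normal CLV3, the peptide that limits stem cell number. By these labels they differ by the mutation of MP (MONOPTEROS, ARF5), an auxin response factor. The growth description calls the double mutant mp319 clv3-7 but names Col-0 for the other group, and clv3 is used here as the genotype label gives it. Each group has 2 libraries, but the table gives each genotype a single value per gene, as reads and as RPKM (reads divided by the length of the gene model and by the column total), so the spread between plants is unknown and no difference has a replicate check. How many plants went into a library is not given in the sources used here.

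SWI/SNF complexes use ATP to slide or evict nucleosomes and so open DNA to transcription factors. PRC2 works in the opposite sense: it methylates lysine 27 of histone H3, a mark that LHP1 and PRC1 proteins bind and that keeps developmental genes silent, while trithorax-type proteins such as ULT1 counter it. TPL does not bind DNA and is brought to target genes by other proteins, among them the Aux/IAA repressors, and works with histone deacetylases. In flower initiation these systems meet at MP: Aux/IAA proteins hold TPL on MP when auxin is low, and when auxin is high MP brings SYD and BRM to its targets.

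Transcripts of all 10 regulators were found at similar levels in both genotypes. The ratio furthest from 1 was that of LHP1, 1.24-fold higher in mp clv3, and the next was MSI1, 1.20-fold lower. In the authors' deposited table all 10 had a false discovery rate (FDR) under 0.05, 4 of them higher in mp clv3 and 6 lower, or 6 and 4 after TMM scaling, which weighs the columns by their trimmed mean ratio. The same threshold was passed by 72.7% of all genes, 26.4% higher and 46.3% lower, and by 87.6% of the 18832 genes that averaged at least 100 reads, so that passing it sets none of the 10 apart. Over all 27322 genes, TMM scaling gave 8327 higher and 11530 lower among those that passed. None of the 10 differed by 1.5-fold or more, against 45.3% of all genes and 39.0% of the genes with at least 100 reads. Of the latter, 40.9% had a ratio no further from 1 than that of LHP1. The 10 had a median log2 ratio of -0.11, beside -0.12 for the genes with at least 100 reads.

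**Figure D1:**
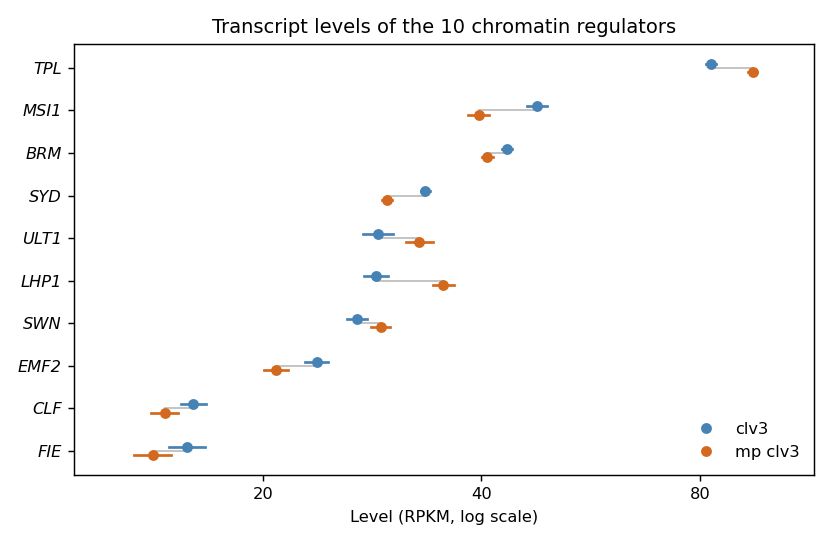
Level of each regulator in RPKM (log scale) in clv3 and mp clv3, 1 value per genotype, with bars for the 95% counting interval on read pairs. TPL stands above the other genes in both genotypes, with 82.9 and 94.5 RPKM, and CLF and FIE stand lowest.

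The depth behind these values was 100328819 reads in clv3 against 103347441 in mp clv3. Intervals given with a fold are exact Clopper-Pearson intervals at 95% on read pairs. They cover counting error alone, not plants, and PCR copies are not independent molecules. The test behind the authors' deposited FDR is not named, so an FDR given with a fold cannot stand for the spread between plants either. An exact binomial test on read pairs of the same columns, adjusted over all genes, called 4 of the regulators higher and 6 lower. It used the same counts without replicates, so this likeness to the deposited calls is no separate support. MP itself had 74.8 RPKM in clv3 against 14.5 RPKM in mp clv3. CLV3 had 1.40 and 15.8 RPKM, and whether both groups carry the same clv3 allele was not tested. Of the shoot meristem markers, STM, WUS, CLV1 and CLV3 were higher in mp clv3 and KNAT1 was lower (42.5 and 11.3 RPKM), and all 5 had reads in both columns. By the authors' deposited table, all 7 tapetum markers of the anther were lower in mp clv3. Their summed level was 392 RPKM in clv3 against 0.480 RPKM in mp clv3, and MS2, DYT1 and A7 had 0 reads in mp clv3. The part of this difference in tissue in the results on the 10 regulators was not tested, and in whole apices fewer cells of a type and less RNA per cell cannot be told apart.

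The SWI/SNF ATPases, which MP recruits, were both slightly lower in mp clv3 on column totals. Under median and TMM scaling SYD came close to 0 and BRM was not lower. SYD (SPLAYED) had 36841 reads and 33.5 RPKM in clv3, and 33640 reads and 29.7 RPKM in mp clv3. It was thus 1.13-fold lower (interval 1.10 to 1.15, FDR 5.2e-57 in the authors' deposited table). On the log2 scale SYD came to -0.05 with median scaling and -0.02 with TMM scaling. BRM (BRAHMA), its closest relative in function, had 28635 reads and 43.4 RPKM in clv3, and 27717 reads and 40.8 RPKM in mp clv3. This 1.06-fold difference (interval 1.04 to 1.09, FDR 2.9e-13 in the authors' deposited table) was lower on column totals and turned to higher, by 0.03 on the log2 scale, when the median ratio of genes with at least 100 reads was set to 0, and by 0.06 with TMM scaling. Read counts alone would rank SYD above BRM. Per length BRM was the higher gene in both genotypes, since the gene model of SYD spans 10972 bases and that of BRM 6579. BRM over SYD was 1.30 in clv3 and 1.37 in mp clv3. Median and TMM scaling apply a constant factor to a column and cannot move this within-column ratio, whereas quantile normalization can. The ratio was 1.06 times higher in mp clv3, with an approximate counting interval from 1.03 to 1.09.

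Of the PRC2 methyltransferases, SWN was higher in mp clv3 and CLF lower on column totals, a direction that CLF lost with TMM scaling. CLF (CURLY LEAF), which keeps floral genes off in leaves, had 4781 reads in clv3 against 4493 in mp clv3, or 16.1 and 14.6 RPKM. Its 1.10-fold decrease (interval 1.03 to 1.16, FDR 1.5e-05 in the authors' deposited table) shrank to -0.01 on the log2 scale with median scaling and turned to 0.02 with TMM scaling. SWN (SWINGER), which acts partly in place of CLF, had 7785 and 8647 reads, or 27.0 RPKM in clv3 against 29.1 RPKM in mp clv3. It was 1.08-fold higher (interval 1.03 to 1.13, FDR 2.2e-06 in the authors' deposited table). SWN was the more abundant transcript of the pair in both genotypes, with a ratio of SWN over CLF of 1.68 in clv3 and 1.99 in mp clv3. That ratio was 1.18 times higher in mp clv3, with an approximate counting interval from 1.10 to 1.27. MEA, the methyltransferase gene of the seed, had 10 reads in clv3 against 3 in mp clv3 and made up 0.101% of the summed RPKM of the 3 methyltransferases in clv3.

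The other PRC2 subunits were all lower on column totals, though EMF2 and FIE came to -0.04 and -0.01 on the log2 scale with TMM scaling. EMF2, the zinc finger subunit that resembles Su(z)12 of Drosophila, had 5780 reads (23.7 RPKM) in clv3 against 5232 (20.9 RPKM) in mp clv3, 1.14-fold lower (interval 1.08 to 1.20, FDR 2.3e-11 in the authors' deposited table). Its paralog VRN2, which acts in vernalization, stood close to it at 21.7 and 20.1 RPKM. The ratio of EMF2 over VRN2 was 1.10 in clv3 and 1.04 in mp clv3, a change of 0.949 whose approximate interval from 0.872 to 1.03 includes 1. FIS2, of the seed, had 19 and 16 reads. FIE, a WD40 protein needed in every form of PRC2, was the lowest of the 10 in both genotypes, with 2466 reads (15.7 RPKM) in clv3 against 2280 (14.1 RPKM) in mp clv3. It was 1.11-fold lower (interval 1.03 to 1.21, FDR 0.000279 in the authors' deposited table).

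MSI1, a histone-binding WD40 protein, had the largest decrease among the 10. It had 7786 reads (47.7 RPKM) in clv3 against 6662 (39.6 RPKM) in mp clv3, 1.20-fold lower (interval 1.15 to 1.26, FDR 2.3e-28 in the authors' deposited table). It stayed lower under each of the scalings tried, from -0.12 with TMM to -0.29 with quantile normalization on the log2 scale. The other 4 MSI genes were lower as well in the authors' deposited table, MSI3 by 1.53-fold, MSI4 (FVE) by 1.28-fold, MSI5 by 1.24-fold and MSI2 by 1.17-fold, and the summed level of the family was 280 RPKM in clv3 against 221 RPKM in mp clv3. MSI1 made up 17.0% of that sum in clv3 and 18.0% in mp clv3. MSI1 is also a subunit of the chromatin assembly factor CAF-1, whose other subunit genes FAS1 (18.1 and 16.2 RPKM) and FAS2 (9.96 and 8.33 RPKM) were 1.11-fold and 1.20-fold lower in the authors' deposited table. Neither was called by the exact binomial test on read pairs after median scaling (adjusted p of 0.545 and 0.0789), and FAS1 came to -0.03 on the log2 scale with that scaling and -0.01 with TMM. RBR1, a retinoblastoma-related protein known to bind MSI1, had 26.7 RPKM in clv3 against 26.9 RPKM in mp clv3, with an FDR of 0.760 in the authors' deposited table.

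**Figure D2:**
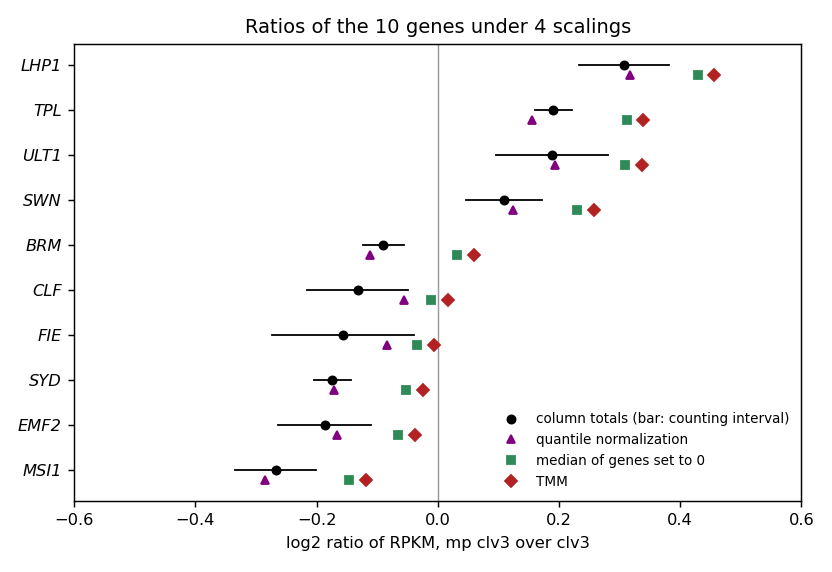
log2 ratio of RPKM in mp clv3 over clv3 for each regulator on column totals, with its 95% counting interval, and under 3 other scalings. LHP1, TPL, ULT1 and SWN lie above 0 under each of them. MSI1, EMF2, SYD and FIE lie below 0 under each, though FIE reaches -0.01 and SYD -0.02 with TMM, while BRM and CLF cross 0.

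The reader of the Polycomb mark, LHP1, and its antagonist ULT1 were both higher in mp clv3. LHP1, a chromodomain protein, had 5222 reads (28.7 RPKM) in clv3 against 6657 (35.5 RPKM) in mp clv3. This was the largest difference among the 10 (interval 1.18 to 1.30, FDR 1.6e-30 in the authors' deposited table), and it lay at percentile 78.0 of the log2 ratios of genes with at least 100 reads. ULT1 (ULTRAPETALA1), which restrains meristem size and counters CLF, had 3523 reads (28.9 RPKM) in clv3 against 4134 (32.9 RPKM) in mp clv3, 1.14-fold higher (interval 1.07 to 1.21, FDR 2.2e-08 in the authors' deposited table). Set against CLF within each column, LHP1 went from 1.79 to 2.42 times its level and ULT1 from 1.80 to 2.24 times. These are changes of 1.36 (approximate interval 1.26 to 1.47) and 1.25 (1.15 to 1.36). LHP1 against MSI1 went from 0.601 to 0.895, a change of 1.49. LHP1 had the highest and MSI1 the lowest ratio of the 10, so its approximate interval from 1.39 to 1.60 is no test.

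The paralog ULT2 parted from ULT1. It had 336 reads (3.95 RPKM) in clv3 against 12 (0.137 RPKM) in mp clv3, 28.8-fold lower (interval 13.0 to 79.7, FDR 2.4e-79 in the authors' deposited table). ULT2 made up 12.0% of the summed RPKM of the pair in clv3 and 0.415% in mp clv3, while the sum itself was 32.8 and 33.0 RPKM. The floral and tapetum genes that were near 0 in mp clv3 moved the same way as ULT2, and their part in this difference was not tested.

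TPL (TOPLESS) was the most abundant of the 10 and was higher in mp clv3. It had 31830 reads (82.9 RPKM) in clv3 against 37405 (94.5 RPKM) in mp clv3, 1.14-fold higher (interval 1.12 to 1.17, FDR 1.8e-66 in the authors' deposited table). It stood at percentile 94.3 of all genes by RPKM in clv3 and 95 in mp clv3. The TOPLESS-related genes went both ways: TPR2 (1.18-fold) and TPR4 (1.15-fold, WSIP2 in RefSeq) were higher, and TPR1 (1.25-fold) and TPR3 (1.20-fold) were lower by the authors' deposited table, directions that held under median and TMM scaling. TPL over TPR1 therefore went from 2.16 to 3.08 and TPL over TPR3 from 2.96 to 4.06, changes of 1.43 (approximate interval 1.37 to 1.49) and 1.37 (1.31 to 1.44). TPL over TPR4 stayed at 2.00 and 1.99, and TPL over TPR2 at 1.87 and 1.81, with approximate intervals of the change from 0.960 to 1.03 and from 0.934 to 1.004. TPL made up 35.3% of the summed RPKM of its family in clv3 and 38.1% in mp clv3. BDL (IAA12), the Aux/IAA protein known to link TPL to MP, had 27.7 RPKM in clv3 against 37.1 RPKM in mp clv3, 1.34-fold higher (interval 1.26 to 1.42).

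**Figure D3:**
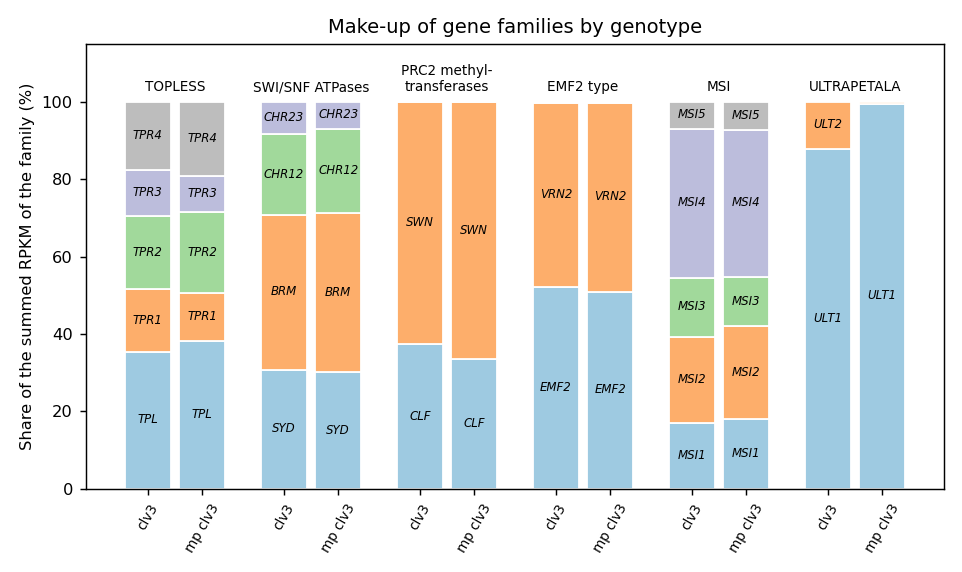
Share of each member in the summed RPKM of its gene family (bars reach 100%) in clv3 and mp clv3. The largest shift is that of ULT2, which takes 12.0% of its pair in clv3 and 0.415% in mp clv3.

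The order of the levels was much alike in both genotypes. In clv3 it ran from TPL through MSI1, BRM, SYD, ULT1, LHP1, SWN, EMF2 and CLF to FIE, from 82.9 to 15.7 RPKM. The counting intervals of ULT1 and LHP1, of LHP1 and SWN, and of CLF and FIE overlapped, so these neighbours were not separated even by counting error. In mp clv3 LHP1 and ULT1 stood above SYD, and BRM stood beside MSI1 with overlapping intervals (40.8 and 39.6 RPKM). The intervals of LHP1 and ULT1, of SYD and SWN, and of CLF and FIE overlapped there. TPL exceeded the next gene by more than counting error in both genotypes.

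The scaling of the columns mattered for these small ratios. Relative to the median log2 ratio of -0.12, SWN stood at 0.23, ULT1 at 0.31, TPL at 0.31 and LHP1 at 0.43 on the log2 scale. On the same scale MSI1 stood at -0.15, EMF2 at -0.07, SYD at -0.05, FIE at -0.03, CLF at -0.01 and BRM at 0.03. An exact binomial test on read pairs against that median, adjusted over all genes with Benjamini-Hochberg, called 4 of the 10 higher, beside 29.8% of all genes, and SYD and MSI1 lower, beside 33.8%. It gave an adjusted p of 0.0995 for BRM, 0.968 for CLF, 0.144 for EMF2 and 0.716 for FIE. This test compares the reads of these columns and not the genotypes.

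**Figure D4:**
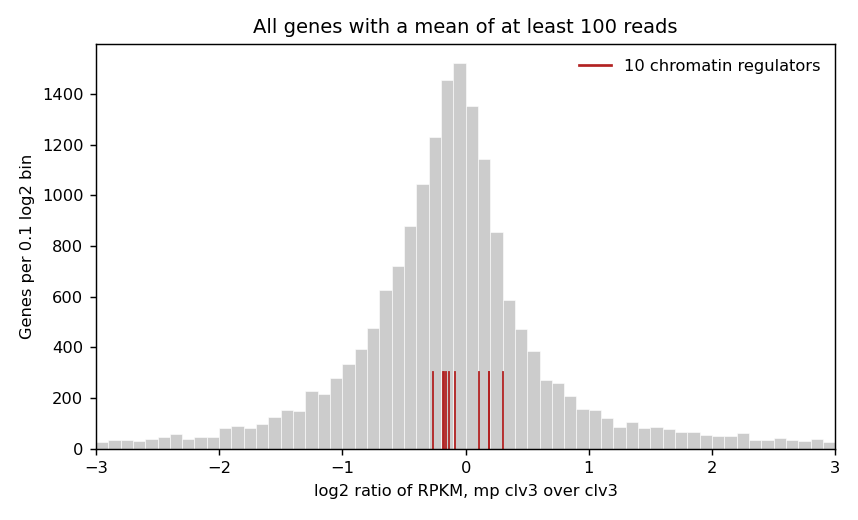
Number of genes per bin of 0.1 in the log2 ratio of RPKM, mp clv3 over clv3, for the 18832 genes that averaged at least 100 reads (1241 lie outside the axis). Vertical lines mark the 10 regulators, which lie between -0.27 and 0.31, in the middle of the distribution.

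Overlapping neighbours could add reads to some of these genes, since use of strand in counting is not given in the sources used here. In the RefSeq annotation of TAIR10.1, 6 of the 10 genes overlap the span of another gene that is in the table. AT1G15740, beside TPL, had 10093 and 14113 reads in clv3 and mp clv3, and AT5G17680, beside LHP1, had 98 and 285. AT2G46030, beside BRM, had 1800 and 2116 reads. The other 4 neighbours had fewer reads in mp clv3. They were AT2G23370 (1760 and 1660 reads) and AT2G23390 (3458 and 2878) beside CLF, which had 4781 and 4493 itself, AT3G20730 (419 and 253) beside FIE, and AT5G58240 (3890 and 3669) beside MSI1. How many reads were shared was not tested. SYD, SWN, EMF2 and ULT1 had no such neighbour.

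The partners of the 10 genes were looked at in 5 lists with 63 genes in all. In the authors' deposited table, 15 of them were higher in mp clv3, 39 lower and 9 did not pass, against 26.4% of all genes higher and 46.3% lower. Of the 18832 genes that averaged at least 100 reads, as 60 of the 63 did, 6453 were higher and 10044 lower. Past 2-fold, 2 of the 63 were higher and 4 lower, against 9.33% and 18.5% of all genes. The median log2 ratio of the 63 was -0.15. At least 1.5-fold different were 10 of the 63, against 45.3% of all genes and 39.0% of genes with at least 100 reads. With TMM scaling the genes called by the authors divided into 25.0 higher and 29.0 lower, beside 8327 and 11530 of all 27322 genes.

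By the authors' deposited table, 2 of 17 further SWI/SNF genes were higher and 12 lower, beside 26.4% and 46.3% of all genes. Among the 18832 genes with at least 100 reads, as all 17 had on average, 6453 were higher and 10044 lower. The median log2 ratio of the list was -0.13, beside -0.12 for genes with at least 100 reads. With TMM scaling 7 of the 17 were higher and 7 lower, beside 8327 and 11530 of all 27322 genes. The direction of this list thus depends on the scaling. The MINU-class ATPase genes were CHR12, at 22.8 and 21.4 RPKM, and CHR23, at 9.02 and 6.90 RPKM, the latter 1.31-fold lower. The core subunit genes SWI3B (42.5 and 38.6 RPKM), SWI3C (25.8 and 23.5 RPKM) and BSH (34.3 and 33.9 RPKM, FDR 0.705 in the authors' deposited table) stayed within 1.11-fold. In this list the 2 genes past 1.5-fold were BRD2, a bromodomain subunit gene that was 1.56-fold lower (14.2 and 9.12 RPKM), and SWP73A. BRIP1 was 1.35-fold and ARP7 1.28-fold lower. SWP73A had 1706 reads (8.96 RPKM) in clv3 against 752 (3.83 RPKM) in mp clv3, 2.34-fold lower (interval 2.07 to 2.65). Its paralog SWP73B, the more abundant gene, was 1.09-fold higher (63.7 and 69.6 RPKM), so that SWP73B over SWP73A went from 7.11 to 18.2.

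By the authors' deposited table, 1 of 10 PRC2-related genes was higher and 8 lower, beside 26.4% and 46.3% of all genes. Among the 18832 genes with at least 100 reads, as 8 of the 10 had on average, 6453 were higher and 10044 lower. With TMM scaling 3 of the 10 were higher and 6 lower, beside 8327 and 11530 of all 27322 genes. The median log2 ratio of the list on column totals was -0.26. The one higher on column totals was VIN3, a PHD protein of the vernalization response, which had 85 reads in clv3 against 181 in mp clv3, 2.07-fold higher (interval 1.42 to 3.05). Its level was under 1 RPKM in both genotypes. Its relatives VRN5 (19.6 and 17.3 RPKM) and VEL1 (59.7 and 53.9 RPKM) were 1.13-fold and 1.11-fold lower on column totals, but with TMM scaling VRN5 came to -0.03 on the log2 scale and VEL1 turned to 0.00043. The exact binomial test on read pairs after median scaling called neither (adjusted p of 0.288 and 0.356). MEA was called lower in the authors' deposited table with an FDR of 0.0490, but the interval of its fold decrease on read pairs, from 0.486 to 59.1, includes 1.

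By the authors' deposited table, 4 of 10 PRC1-related genes were higher and 5 lower, beside 26.4% and 46.3% of all genes. Among the 18832 genes with at least 100 reads, as 9 of the 10 had on average, 6453 were higher and 10044 lower. The median log2 ratio of the list was -0.10. The RING protein genes parted. RING1B had 1395 reads (8.63 RPKM) in clv3 against 3117 (18.7 RPKM) in mp clv3, 2.17-fold higher (interval 1.98 to 2.38, FDR 3.9e-137 in the authors' deposited table), while RING1A went from 11.9 to 9.04 RPKM, 1.31-fold lower. RING1A was the more abundant transcript in clv3 and RING1B in mp clv3, and RING1B over RING1A went from 0.727 to 2.07, a change of 2.85 with an approximate interval from 2.52 to 3.22. EMF1, a plant PRC1-type protein, had 18.1 and 17.9 RPKM with an FDR of 0.681 in the authors' deposited table. VAL1, a B3 protein that recruits Polycomb complexes, was 1.22-fold higher (22.1 and 26.9 RPKM). BMI1C had 24 and 8 reads, a decrease whose interval (0.937 to 13.1) includes 1.

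Among 14 genes listed here as Polycomb antagonists, the authors' deposited table had 1 higher and 10 lower (3 and 8 with TMM scaling). The lower genes include the CHD3 remodeller PKL. Of all genes, 26.4% were higher and 46.3% lower (8327 and 11530 of 27322 with TMM scaling). Of the 18832 genes that averaged at least 100 reads, as all 14 did, 6453 were higher and 10044 lower. The median log2 ratio of the list was -0.29, beside -0.12 for those 18832 genes. After ULT2, the lowest ratios belonged to the histone H3 lysine 4 methyltransferase genes ATX5 (1.86-fold lower, 6.49 and 3.49 RPKM) and ATX4 (1.84-fold lower, 11.3 and 6.14 RPKM), named here after their values were seen. ATX1 was 1.31-fold lower and REF6, which removes the PRC2 mark, 1.38-fold lower. The other mark eraser ELF6 had 17.2 and 17.0 RPKM with an FDR of 0.541 in the authors' deposited table. The one higher on column totals was JMJ13, a further demethylase of the mark, at 9.35 and 10.5 RPKM.

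Corepressor, histone deacetylase and adaptor genes related to TPL, 12 in all, numbered 7 higher and 4 lower by the authors' deposited table. Of all genes 26.4% were higher and 46.3% lower. Among the 18832 genes with at least 100 reads, as all 12 had on average, 6453 were higher and 10044 lower. The median log2 ratio of the list was 0.07. None of the 12 was at least 1.5-fold different, against 45.3% of all genes and 39.0% of genes with at least 100 reads. HDA19, the histone deacetylase that works with TPL, was the most abundant of them, with 121.5 RPKM in clv3 against 127 RPKM in mp clv3, 1.05-fold higher. HDA9 had the largest ratio, 1.31-fold higher (20.9 and 27.3 RPKM). LUG, a Groucho-type corepressor that silences floral genes, was 1.18-fold higher, and its relative LUH 1.12-fold lower, which median scaling brought to -0.04 on the log2 scale.

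**Figure D5:**
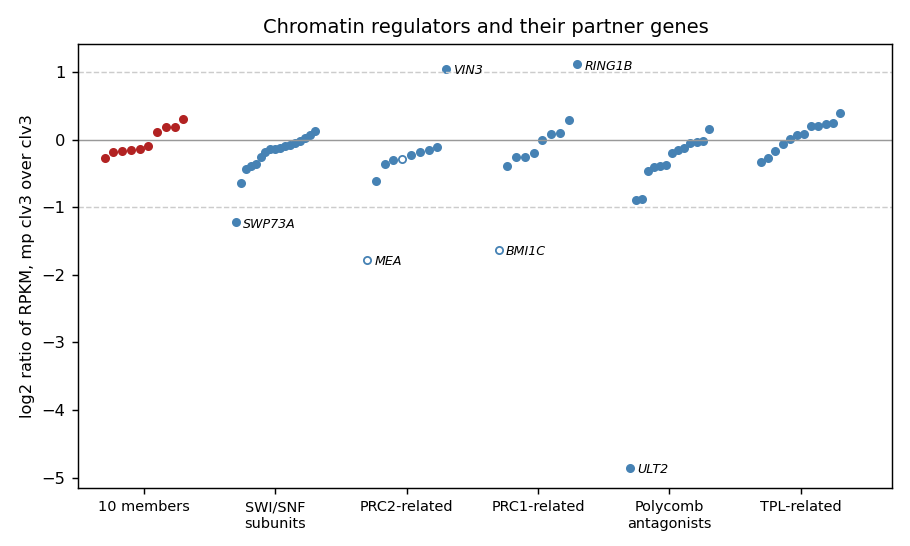
log2 ratio of RPKM, mp clv3 over clv3, for the 10 regulators and the genes of 5 partner lists, with open circles for genes under 100 reads in both genotypes and dashed lines at 2-fold. All 10 regulators lie near 0, and the named partner genes are those beyond 2-fold, with ULT2 lowest at -4.85.

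Of 16 genes listed as targets of these regulators, AG was not analysed here. At least 1.5-fold different were 12 of the other 15, against 45.3% of all genes and 39.0% of genes with at least 100 reads. None of the 10 regulators was, but both lists were chosen with earlier results of these data known, so setting them side by side is no test. By the authors' deposited table, 3 of these 15 were higher and 12 lower, and those past 2-fold numbered 2 and 10. Over all genes the shares were 26.4% and 46.3%, and 9.33% and 18.5% past 2-fold. Among the 18832 genes with at least 100 reads, as all 15 had on average, 6453 were higher and 10044 lower. Past 2-fold those genes numbered 1868 higher and 2584 lower. The Polycomb targets PI, of petals and stamens, and SEP3, of the inner floral organs, had 73.4 and 92.8 RPKM in clv3 against 1.39 and 0.561 RPKM in mp clv3. AP3 and SEP1 had 2 reads each in mp clv3, FT had 2 and FLC 14. Among KNOX genes under Polycomb control, STM had 98.8 and 217 RPKM and KNAT1 was 3.77-fold lower, whereas KNAT2 was 1.22-fold lower (15.2 and 12.4 RPKM). Of the targets to which MP is known to bring SYD and BRM, FIL had 79.0 and 0.841 RPKM, TMO3 (CRF2 in RefSeq) had 16.4 and 13.8 RPKM, and LFY had 24.5 and 27.4 RPKM. The MP target TMO5 was 2.57-fold lower (21.3 and 8.28 RPKM). The SYD targets WUS and CUC2 went apart, WUS being 3.83-fold higher and CUC2 3.32-fold lower. KNAT2, TMO3 and LFY are named here after their values were seen. The tapetum markers given above moved with the floral targets, and their part was not tested.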

How the data were processed

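RNA-seq reads were processed by the authors with CASAVA 1.7 and BWA on TAIR10, per the submitters' processing notes. Strand-specific libraries were read as pairs of 100 bases, per the labels' protocols. Read counts were deposited by the authors as 1 column for each genotype, in which 0.5 stands for 0 and was read so here. How libraries were combined is not given in the sources used here. These values are therefore the authors' own, without SD. As the deposited counts are not all whole, they may be estimated counts. After 0.5 was set to 0, no rounding of reads was needed. Exact tests rounded reads divided by 2 down to whole pairs, while the intervals used them unrounded. The deposited RPKM are scaled to gene model length and column total, per the file headers. The deposited log2 ratio is that of RPKM in mp clv3 over clv3, and the deposited FDR is an adjusted p-value from a test that is not named. AT1G01010 was left out because its cells are shifted.

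The 10 genes and all lists were chosen with earlier results of these data known. CAF-1 genes, BDL and RBR1 were added last. The planned edgeR test across libraries was not possible with 1 column per genotype. In clv3, 83.3% of the counts from 1 to 9 were even, so intervals were computed on reads divided by 2. Change of a within-column ratio has an approximate interval from the summed reciprocal read pairs, and 15 such ratios were computed without adjustment. Gene model lengths were computed from reads and RPKM. Named by rule were the 10 genes, MP, CLV3, direct paralogs of the 10, and list genes with an FDR under 0.05, a ratio of at least 2 and 100 or more reads in the higher genotype. All other partner genes were picked as examples after their values were seen. Names, and the gene spans used to find overlapping neighbours, came from RefSeq TAIR10.1. Intervals and exact tests were tested on simulated data. Alternatives were median scaling, quantile normalization, TMM scaling (edgeR 4.0.16), a pseudocount of 1 RPKM, a minimum of 100 reads, exact tests on read pairs and, added after seeing the data, totals without the top 1% of genes and exact tests after median scaling. Python 3.11.15, scipy 1.17.1 and R 4.3.3 were used.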

Additional observations from a re-analysis of the deposited data

How the results depend on the processing

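No paired analysis was possible because the table holds 1 value per gene for each genotype and no replicate numbers, and leaving out a library could not be run for the same reason. Of the 10 ratios, BRM turned to 0.032 with median scaling, with and without the exact test, and to 0.059 with TMM scaling, and CLF turned to 0.017 with TMM scaling, because these scalings add 0.12 and 0.15 to every log2 ratio. No scaling, pseudocount or minimum brought any of the 10 to 1.5-fold. Exact tests on read pairs after median scaling left 2 of the 6 lower regulators lower. In the same setting 7 SWI/SNF, 4 PRC2-related, 2 PRC1-related and 2 TPL-related genes were lower and 3 antagonists higher. With median scaling the higher genes numbered 4 in the SWI/SNF, 2 in the PRC2-related and 2 in the antagonist list, and with TMM scaling 7, 3 and 3, with 7 SWI/SNF genes lower. Over all 27322 genes, 7975 were higher with median scaling and 8327 with TMM scaling. Exact tests on read pairs left 1 SWI/SNF gene higher. The PRC2-related gene at least 2-fold higher (VIN3) became 0 with a pseudocount of 1 RPKM. The PRC2-related and PRC1-related genes at least 2-fold lower (MEA and BMI1C, 1 each) became 0 with quantile normalization, the pseudocount, the minimum of 100 reads and both exact tests. The other 189 of 214 counts stayed within 1.5 times. Calls by the authors' FDR could not change under the scalings, so the counts by direction test the sign alone. Depth limited little for the 10 genes, whose intervals reach at most 0.12 to either side on the log2 scale. Ratios this small were not separable from the spread between plants, which is unknown.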
